A study of Gallus gallus with 9 samples.

Results

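A set of 120 mRNAs was high in hen granulosa cells at ZT0, lower at ZT12 and still low at ZT20. They were picked by a rule on the deposited log2(TPM + 1) values of the mRNA table, where TPM is a transcript's abundance normalised for its length and for the library's total. The rule asked for a mean of the 3 ZT0 libraries (M0) that was at least 1 above the mean at ZT12 (M12), and a mean at ZT20 (M20) less than 0.5 away from M12. Of the 12479 mRNAs in the table, 120 (0.962%) met it and are called members here. Because the members were chosen on these differences, the differences between stages given for them are a description and not a finding.

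The granulosa layer of the F1 follicle, which is next to ovulate, was taken from 9 Rohman laying hens 210 days of age. Cells of 3 hens were frozen at 9:00 (ZT0), 3 at 21:00 (ZT12) and 3 at 5:00 (ZT20), the stage of the surge of luteinizing hormone (LH). Each hen gave 1 library and was sampled once, so a stage difference is a difference between hens. No hen carried a treatment or an altered gene, and the libraries were made from total RNA after removal of ribosomal RNA.

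Granulosa cells line the inside of the follicle wall around the yolk-filled oocyte, divide while the follicle grows, and turn to making progesterone as the follicle matures. The LH surge sets off ovulation of the F1 follicle. The level of an mRNA reflects both its synthesis and its decay. In RNA of whole cell layers, fewer cells of a type and less RNA per cell cannot be told apart.

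The files name genes by Ensembl identifier. Symbols and positions were at hand for part of the table only, with positions for 1998 mRNAs and symbols for 1824. Of the 120 members, 17 had a position and 15 a symbol, so 105 are known by identifier alone. The 15 were SHMT1, HPD, KCNIP1, MAPT, RIMBP2, JMJD1C, KCNMB1, HERPUD1, VAMP3, GABRP, GSS, LAMB3, NME4, DNAAF1 and ATP13A2, in falling order of M0 − M12. They are the members that happened to be annotated, and nothing about the roles of the other 105 follows from them.

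In all, 510 mRNAs had M0 − M12 of at least 1. At ZT20, 292 of these were at least 0.5 above their ZT12 mean, 98 were at least 0.5 below it, and the 120 members lay between. Median levels of the members were 12.3 TPM at ZT0, 4.33 TPM at ZT12 and 3.92 TPM at ZT20. Over all mRNAs of the table they were 14.6, 10.8 and 11.4 TPM, so the members were high at ZT0 only against their own later levels. For the 292 mRNAs that were higher again, the medians were 13.02, 3.92 and 22.9 TPM in the same order, and for the 98 that were lower still they were 19.4, 6.93 and 1.68 TPM. The members and the 292 thus had close median levels at ZT0 and at ZT12, as described by these medians, and were parted by the rule at ZT20.

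M0 − M12 of the members ran from 1.001 to 3.12 with a median of 1.17. It was at least 2 for 3 members, between 1.5 and 2 for 20, and below 1.5 for 97, of which 43 lay below 1.1. M20 − M12 ran from -0.50 to 0.46. The ZT20 mean was above the ZT12 mean in 61 members and below it in 59. Just inside the limit on M0 − M12 lay ENSGALG00000008759 at 1.0011, and just outside it PARD6A, a cell polarity protein, at 0.99937. Just inside the upper limit on M20 − M12 lay HERPUD1 at 0.457 and just outside it ENSGALG00000044675 at 0.50066. Just inside the lower limit lay ENSGALG00000006864 at -0.49856 and just outside it ENSGALG00000007132 at -0.510.

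**Figure D1:**
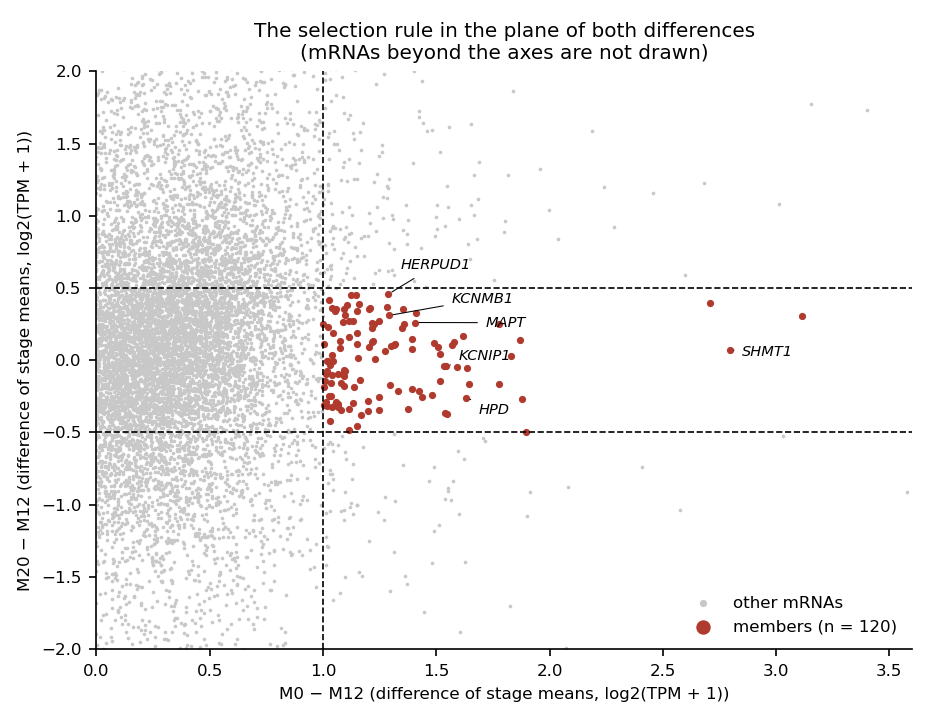
Each point is 1 mRNA. The x axis is M0 − M12 and the y axis M20 − M12, both as differences of stage means on the log2(TPM + 1) scale, and the dashed lines are the limits of the rule. The 120 members fill the box to the right of 1 and between -0.5 and 0.5, crowded against its left edge, with SHMT1 at 2.80 far to the right.

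Among enzymes of intermediary metabolism, SHMT1 had the largest difference of any member with a symbol. It encodes cytosolic serine hydroxymethyltransferase, which passes the one-carbon unit of serine to folate for nucleotide synthesis. SHMT1 was at 50.5, 59.8 and 71.8 TPM in the ZT0 hens, 9.69, 7.25 and 6.71 TPM in the ZT12 hens and 7.16, 7.53 and 10.3 TPM in the ZT20 hens. Every ZT0 hen was above every later hen, and the ZT12 and ZT20 hens overlapped. The mean at ZT12 was 0.130 of that at ZT0, and the mean at ZT20 was 0.137 of it.

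HPD encodes 4-hydroxyphenylpyruvate dioxygenase of tyrosine breakdown. It was at 30.9, 19.1 and 22.3 TPM at ZT0, 6.22, 6.71 and 8.04 TPM at ZT12, and 7.66, 7.27 and 3.10 TPM at ZT20. The ZT0 hens stood apart, and ZT20 replicate 3 was the lowest of the 9 libraries. GSS, glutathione synthetase, makes the main thiol antioxidant of the cell. GSS was at 24.9, 26.5 and 49.3 TPM at ZT0, 13.4, 15.04 and 13.3 TPM at ZT12, and 22.7, 17.7 and 18.2 TPM at ZT20. Its ZT20 hens all lay above its ZT12 hens and below its ZT0 hens, and its M20 − M12 of 0.45 was close to the limit. The mean at ZT20 was 0.581 of that at ZT0.

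NME4 encodes a nucleoside diphosphate kinase of mitochondria. Its levels were 11.9, 7.82 and 9.97 TPM at ZT0, 3.71, 7.75 and 2.23 TPM at ZT12, and 2.89, 5.603 and 5.88 TPM at ZT20. ZT12 replicate 2 almost reached the lowest ZT0 hen, and the ZT12 hens spread widely, at 4.57 ± 2.86 TPM (SD, n = 3) against 9.89 ± 2.03 TPM (SD, n = 3) at ZT0.

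HERPUD1 and VAMP3 were the most abundant members with a symbol, and both belong to the membrane system of the cell. HERPUD1 sits in the membrane of the endoplasmic reticulum, is induced when unfolded proteins build up there, and takes part in their removal. It was at 243, 246 and 273 TPM at ZT0, 90.6, 99.7 and 122 TPM at ZT12, and 160, 135 and 133 TPM at ZT20. The 3 stages did not overlap, with ZT20 between the other stages. The mean was 254 ± 16.1 TPM at ZT0, 104 ± 16.1 TPM at ZT12 and 143 ± 15.3 TPM at ZT20 (SD, n = 3 each).

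VAMP3, cellubrevin, is the SNARE protein of recycling endosomes. VAMP3 was at 107, 145 and 122 TPM at ZT0, 54.7, 59.2 and 51.9 TPM at ZT12, and 81.7, 74.8 and 34.5 TPM at ZT20. Its ZT12 hens lay close together at 55.3 ± 3.68 TPM (SD, n = 3), while its ZT20 hens spread on both sides of them. ATP13A2, a lysosomal transport ATPase, was at 5.61, 7.33 and 8.33 TPM at ZT0, 2.66, 3.603 and 2.76 TPM at ZT12, and 2.71, 5.14 and 2.53 TPM at ZT20. ZT20 replicate 2 came close to the lowest ZT0 hen, without overlap.

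KCNIP1, KCNMB1 and GABRP are parts of ion channels, and RIMBP2 is a scaffold that ties calcium channels to sites of vesicle release in neurons. RIMBP2 was at 25.5, 31.3 and 36.7 TPM at ZT0, 15.8, 12.8 and 6.97 TPM at ZT12, and 12.01, 6.26 and 8.72 TPM at ZT20. Its ZT0 hens stood above all others. KCNIP1 is a calcium-binding protein that attaches to Kv4 potassium channels. It was at 21.9, 26.8 and 117 TPM at ZT0, 18.7, 14.1 and 9.18 TPM at ZT12, and 14.3, 12.2 and 12.8 TPM at ZT20. The mean of 55.3 ± 53.6 TPM at ZT0 (SD, n = 3) rested on ZT0 replicate 3, and without it M0 − M12 was 0.80, below the limit, against 1.54 with it.

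GABRP, the pi subunit of GABA-A receptors, showed the same feature more strongly. It was at 0.604, 1.07 and 8.28 TPM at ZT0, 0.762, 0.275 and 0.257 TPM at ZT12, and 0.654, 0.825 and 0.896 TPM at ZT20. ZT0 replicate 3 stood alone, the stages overlapped, and without that library M0 − M12 was 0.37, against 1.15 with it. KCNMB1, the beta subunit of the large-conductance calcium-activated potassium channel of smooth muscle, was low throughout. Its levels were 2.23, 1.33 and 2.91 TPM at ZT0, 0.350, 0.386 and 0.0724 TPM at ZT12, and 0.266, 0.422 and 1.12 TPM at ZT20. The ZT0 hens of KCNMB1 did not overlap the later ones, though ZT20 replicate 3 came near.

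The remaining members with a symbol serve the cytoskeleton, matrix, cilia and chromatin. MAPT, the microtubule-binding protein tau, was at 4.29, 10.3 and 10.02 TPM at ZT0, 2.13, 3.29 and 1.65 TPM at ZT12, and 2.47, 3.67 and 2.76 TPM at ZT20. ZT0 replicate 1 lay nearer to the later hens than to the other ZT0 hens. LAMB3, the laminin beta 3 chain of basement membranes, was at 2.67, 1.36 and 2.96 TPM at ZT0, 0.617, 0.441 and 0.522 TPM at ZT12, and 0.313, 0.528 and 0.535 TPM at ZT20. The 6 later hens of LAMB3 were all below 1 TPM.

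DNAAF1, which helps to assemble the dynein arms of motile cilia, was at 3.71, 4.67 and 4.51 TPM at ZT0, 1.64, 1.52 and 1.68 TPM at ZT12, and 0.657, 1.78 and 1.12 TPM at ZT20. JMJD1C, a jumonji-domain protein of chromatin, was at 18.6, 23.8 and 24.8 TPM at ZT0, 10.3, 7.28 and 7.36 TPM at ZT12, and 5.12, 7.77 and 8.44 TPM at ZT20. In both genes the ZT0 hens stood above all later hens and the ZT12 and ZT20 hens overlapped. Of the 15 members with a symbol, GABRP alone had a later hen above a ZT0 hen. Over all mRNAs tested, 18.7% had every ZT0 hen above every later hen. The members were chosen for a high ZT0 mean, so nothing is read from this.

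**Figure D2:**
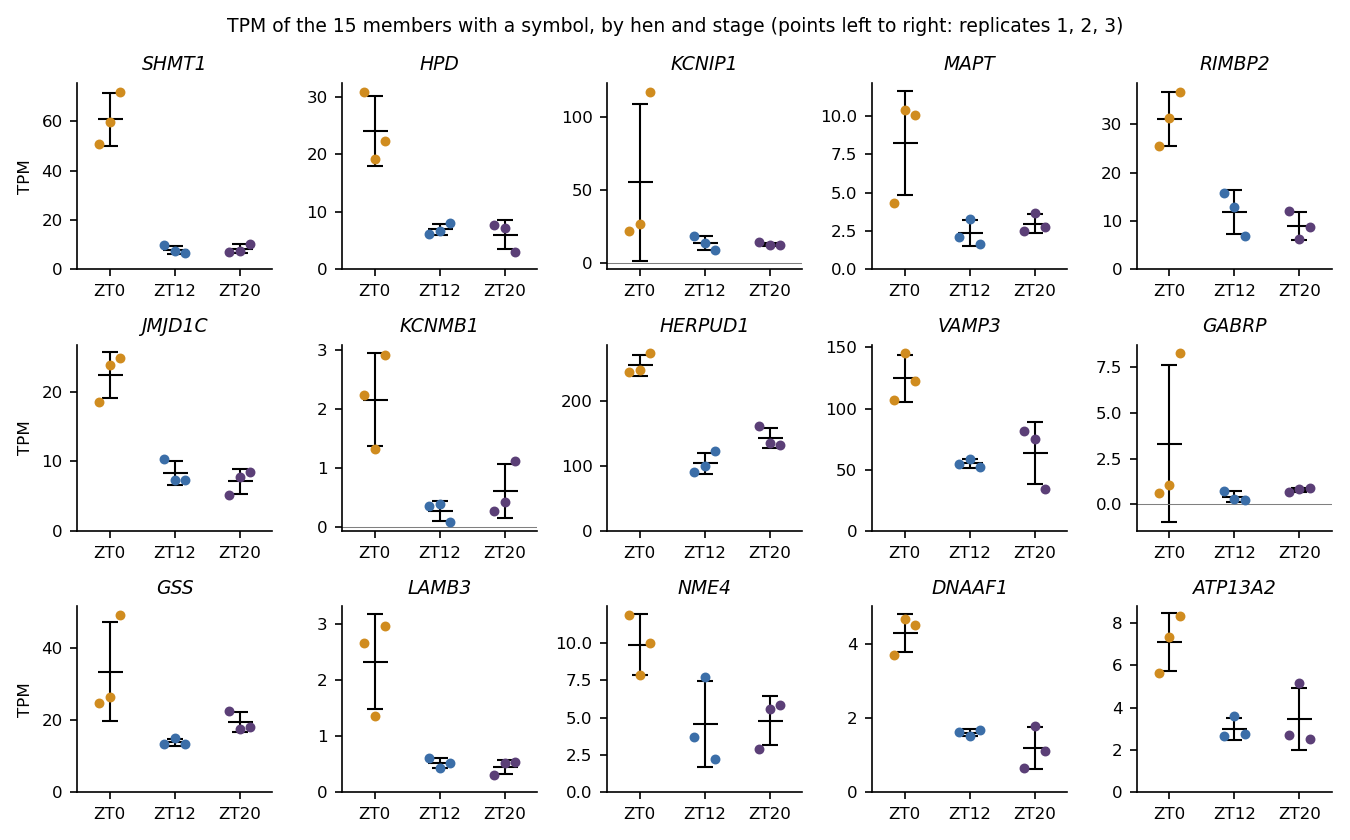
TPM of the 15 members with a symbol. Each point is 1 hen, the stages are on the x axis, the long tick is the mean and the bars are 1 SD (n = 3). SHMT1, HPD and HERPUD1 show 3 ZT0 hens well above the rest, while in KCNIP1 and GABRP a single ZT0 hen, at 117 and 8.28 TPM, lifts the mean.

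The largest differences among members without a symbol were of ENSGALG00000006575 and ENSGALG00000008178. ENSGALG00000006575 was at 16.96, 10.3 and 52.9 TPM at ZT0, 1.83, 1.61 and 1.28 TPM at ZT12, and 1.68, 2.52 and 2.38 TPM at ZT20. Its M0 − M12 of 3.12 was the largest of all members, and it was 2.48 without ZT0 replicate 3. ENSGALG00000008178 was at 12.2, 22.0 and 23.1 TPM at ZT0, 1.09, 4.06 and 1.48 TPM at ZT12, and 3.01, 3.58 and 2.27 TPM at ZT20. In both the ZT0 hens stood clear of every later hen.

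Across all 120 members, mean TPM at ZT0 was below 5 in 23, from 5 to below 100 in 89 and at least 100 in 8. In 21 members the means at ZT12 and ZT20 were both below 1 TPM. For the median member, mean TPM at ZT12 was 0.380 of that at ZT0 and mean TPM at ZT20 was 0.348 of it. The differences on the log2(TPM + 1) scale understate the change of the members with low TPM.

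All 120 members passed the filter on low values, more than 0.1 TPM in at least 1 library, and were fitted together with all other mRNAs that did, 12472 in all. Each member could pass through the ZT0 libraries alone. An mRNA was called where limma gave an adjusted p under 0.05 and the log2 fold change exceeded 1 in size. By that standard 97 members were called lower at ZT12 than at ZT0, where 3.32% of the 12472 mRNAs tested (414) were. At ZT20, 81 members were called lower than at ZT0, where 16.6% of all mRNAs tested (2070) were. At both stages 73 members were called lower, where 1.36% of all mRNAs tested (169) were. These comparisons are the ones the rule was built on, so the counts describe how far the spread between hens let the selected differences pass, and nothing is read from them.

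The count at ZT12 changed when a single library was left out. It was 52 without ZT0 replicate 2, 27 without ZT0 replicate 3, 41 without ZT12 replicate 2 and 43 without ZT12 replicate 3. The count of all mRNAs called lower at ZT12, 414 with all libraries, fell in these settings too. It was 290 without ZT0 replicate 2, 166 without ZT0 replicate 3, 192 without ZT12 replicate 2 and 217 without ZT12 replicate 3. In other settings the counts went opposite ways. Without ZT0 replicate 1 it was 625 for all mRNAs and 87 for the members. Without ZT12 replicate 1 it was 460 for all mRNAs and 76 for the members. The members' count at ZT20 was 59 to 91 when each library was left out. Without ZT0 replicate 2 or ZT12 replicate 2, the members' median M0 − M12 was 1.22 and 1.20, against 1.17 with all libraries. The members' counts at ZT12 thus fell there although the median difference did not.

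By the plain order of the 9 values, every ZT0 hen was above every ZT12 hen in 108 members, against 41.6% of all mRNAs tested, and above every ZT20 hen in 101 members, against 39% of all mRNAs tested. In 97 members the ZT0 hens were above both, against 18.7% of all mRNAs tested. The deposited values as a whole were also higher at ZT0. The median of M0 − M12 over all 12479 mRNAs was 0.28, and after the libraries were scaled by the median ratio of their mRNAs it was 0.03. The factors of that scaling were 1.12 to 1.19 for the ZT0 libraries, 0.854 to 0.966 for ZT12 and 0.934 to 0.995 for ZT20.

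Relative to that shift the members' differences were smaller. All 120 kept a ZT0 mean above the ZT12 mean after scaling, which the rule's minimum of 1 made near certain. M0 − M12 then ran from 0.70 to 2.85, with a median of 0.92. It was still at least 1 in 44 members, and 43 members still met the whole rule. Of the 15 with a symbol, SHMT1, HPD, KCNIP1, MAPT, RIMBP2, JMJD1C and KCNMB1 did, with scaled differences from 1.03 for JMJD1C to 2.49 for SHMT1. HERPUD1 and GABRP were just below the limit, at 0.97 and 0.995. With the scaling, 20 members were called lower at ZT12 than at ZT0. The split of all mRNAs called between these stages was then 97 higher and 109 lower at ZT12, where it was 67 higher and 414 lower as deposited.

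The hens of ZT0 did not contribute alike. ZT0 replicate 3 was the highest ZT0 library in 91 members (75.8%), replicate 2 in 16 and replicate 1 in 13. It was the highest in 73.3% of the 292 mRNAs that were higher again, in 66.3% of the 98 that were lower still and in 46.8% of all mRNAs of the table. In 15 members the highest ZT0 hen was more than 1 above the middle one on the log2(TPM + 1) scale, and in 14 of them it was replicate 3. At ZT12, replicate 3 was the lowest library in 65 members (54.2%), where it was the lowest in 57.5% of all mRNAs. The selection takes mRNAs with a high ZT0 mean and so favours libraries that stand high, and shares among the members are a description for that reason.

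The members also varied more between hens of a stage than most mRNAs. On the log2(TPM + 1) scale the median SD was 0.388 for the members and 0.172 for all mRNAs at ZT0. It was 0.283 against 0.188 at ZT12, and 0.266 against 0.208 at ZT20. The 292 mRNAs that were higher again had a median SD of 0.472 at ZT0 and the 98 that were lower still 0.368, so a wide spread was not particular to the members. At ZT0, 107 of the 120 members had an SD above the median of all mRNAs. A selection on means of 3 favours mRNAs with a wide spread, and the share this has in the difference was not tested.

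**Figure D3:**
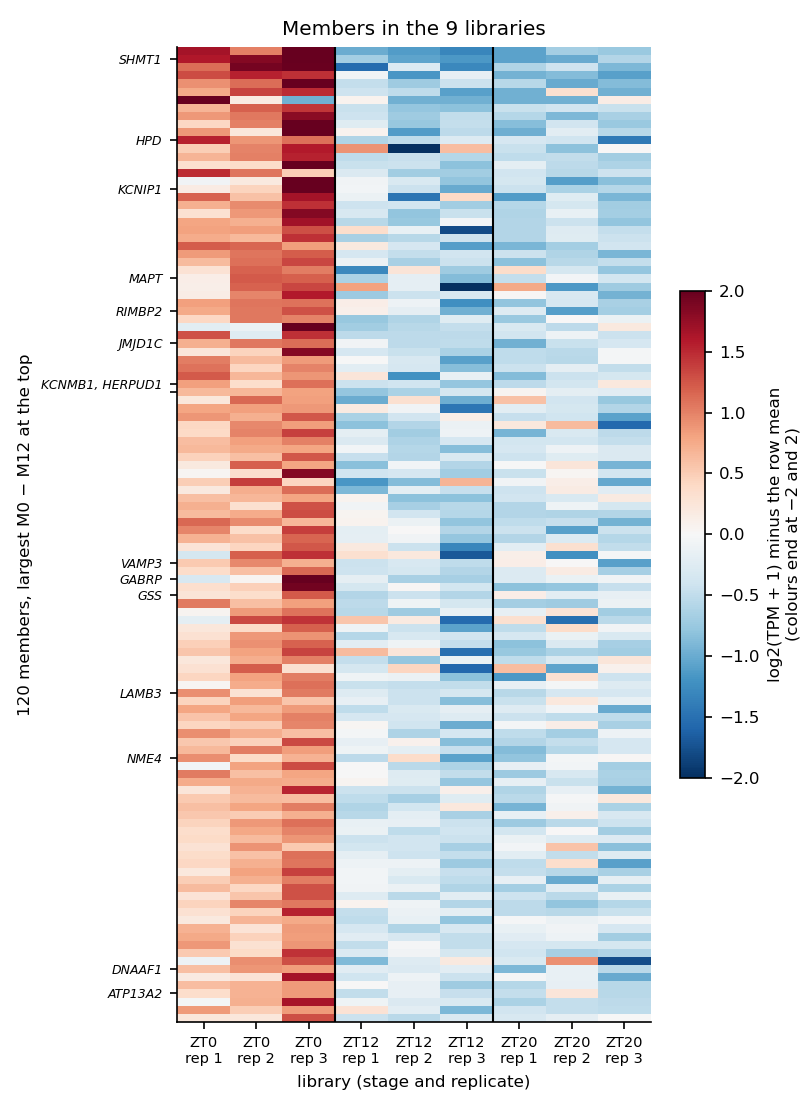
The 120 members (rows, largest M0 − M12 at the top) in the 9 libraries (columns), as log2(TPM + 1) minus the row's mean over the libraries. Red is above the mean and blue below it, and colours end at -2 and 2. The ZT0 columns are mostly red and the 6 later ones mostly blue, and ZT0 replicate 3, the highest ZT0 library in 91 rows, is the darkest column.

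The summed TPM of the 120 members follows from the selection and is given by library as a description. It was 0.909, 0.879 and 1.09% of the mRNA TPM in the ZT0 libraries, 0.471, 0.347 and 0.374% in the ZT12 libraries, and 0.363, 0.402 and 0.373% in the ZT20 libraries. The 3 most abundant members, all without a symbol, carried most of it. Without them the members summed to 2372, 2975 and 3846 TPM at ZT0, 1376, 1304 and 1010 TPM at ZT12, and 1411, 1197 and 1060 TPM at ZT20. The later stages overlapped, and ZT0 replicate 3 was again the highest.

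Leaving out a library changed which mRNAs met the rule. Without ZT0 replicate 3 it was met by 77 mRNAs, of which 62 were members, and the other 58 members then had M0 − M12 below 1, though below 0.5 in only 3. Without ZT0 replicate 1 it was met by 207 mRNAs, of which 112 were members. Without ZT12 replicate 3 it was met by 98, of which 73 were members. Among the 9 settings that leave out 1 library, 32 members met the rule in all. SHMT1, HPD, MAPT, JMJD1C, KCNMB1 and VAMP3 were the 6 of these with a symbol. Of the 32, 25 also met it after median ratio scaling.

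**Figure D4:**
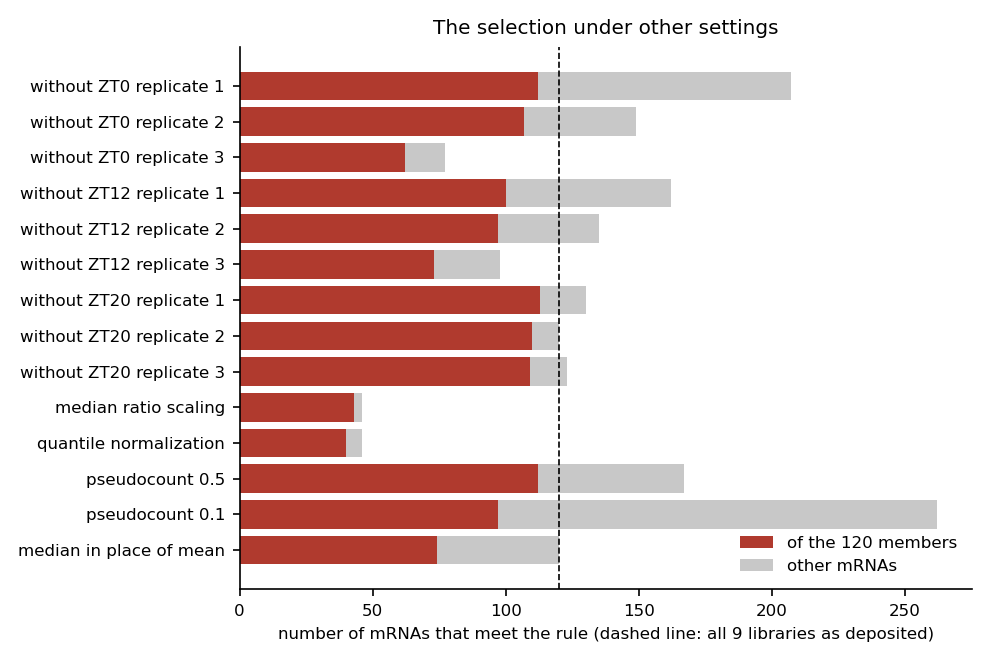
Number of mRNAs that met the rule (x axis) when each library was left out, under 2 other scalings, under 2 smaller pseudocounts and with medians for means. The red part of a bar counts mRNAs that are among the 120 members and the grey part other mRNAs, and the dashed line marks 120. The red part is shortest with the scalings (43 and 40) and without ZT0 replicate 3 (62).

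Where the members lie could be read for 17 of them, on 11 chromosomes of the Ensembl chicken assembly the study names. SHMT1 is on chromosome 14 from 5132126 to 5135948, in 11 exons, and HPD on chromosome 15 from 5728349 to 5731163, also in 11 exons. HERPUD1 is on chromosome 11 from 661331 to 665530 in 7 exons and VAMP3 on chromosome 21 from 292093 to 295858 in 5. The transcripts of the 17 had 2 to 28 exons with a median of 9, as did all 1998 mRNAs with a position, whose median was also 9.

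The 3 channel genes lie near each other on chromosome 13, which was seen after the values. GABRP runs from 3488060 to 3498167, KCNIP1 from 3522016 to 3533656 and KCNMB1 from 3783494 to 3790024, with gaps of 23.8 kb and 250 kb between them. GABRP and KCNIP1, the closest pair, both had a ZT0 mean that rested mainly on replicate 3. Without ZT0 replicate 3, ZT12 minus ZT0 also fell short of 1 in size for members on other chromosomes. It was -0.84 for GSS, -0.90 for ATP13A2, -0.95 for LAMB3 and -0.98 for DNAAF1. With all libraries it was -1.15, -1.01, -1.09 and -1.02 in the same order. These genes thus lay near the limit and moved less than GABRP and KCNIP1. ATP13A2 and DNAAF1 also fell short of 1 without ZT0 replicate 2, at -0.98 and -0.96. Of the 1998 mRNAs with a position, 90 lie on chromosome 13. None of the 13 other mRNAs with a position within 1000 kb of the outer pair met the rule, and their M0 − M12 ran from -0.99 to 0.59. In 3 of them, CTNNA1, DOCK2 and RARS, every ZT0 hen was above every ZT12 hen, against 41.6% of all mRNAs tested. CTNNA1, a catenin of cell junctions, was at 99.4, 91.5 and 117 TPM at ZT0, 69.6, 68.3 and 65.1 TPM at ZT12, and 41.4, 35.3 and 30.5 TPM at ZT20. RARS, the arginine tRNA synthetase, was at 30.7, 31.1 and 28.9 TPM at ZT0, 26.8, 27.7 and 26.6 TPM at ZT12, and 28.5, 27.6 and 20.7 TPM at ZT20, so that every ZT0 hen was above every later hen by a small margin. NPM1 was at 383, 370 and 361 TPM at ZT12, against 346, 522 and 397 TPM at ZT0, and SPDL1 was at 4.55, 4.76 and 2.86 TPM at ZT12, against 3.92, 5.38 and 6.13 TPM at ZT0. Whether genes without a position in between did was not analysed here.

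**Figure D5:**
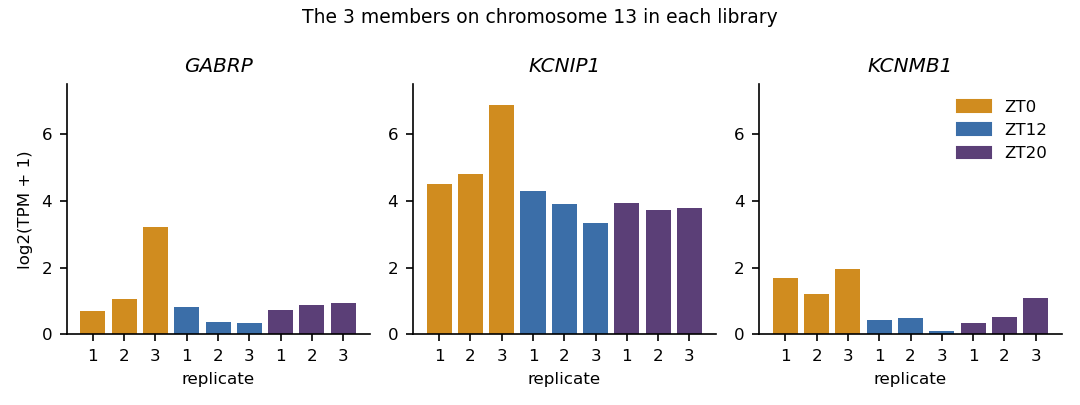
Deposited log2(TPM + 1) of GABRP, KCNIP1 and KCNMB1, 1 bar per library, in the order of their positions on chromosome 13. GABRP and KCNIP1 are high in ZT0 replicate 3 alone or mainly, while all 3 ZT0 bars of KCNMB1 stand above its later bars.

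Long noncoding RNAs (lncRNAs) were measured in the same libraries and took no part in the rule. A position was at hand for 1220 of the 7528 lncRNAs listed, so other neighbours could not be seen. Within 100 kb of the 17 members with a position, 9 lncRNAs with a position were found, near 4 members, and all 9 were tested. None was called between ZT12 and ZT0 by limma, the only tool run, where 0.0809% of the 7414 lncRNAs tested (6) were. At an unadjusted p under 0.05 it was 5 of the 9, where 25.3% of all lncRNAs tested were. Of these 5, G9148, G9144 and G9135 lie near the same member, ENSGALG00000000994, and G9148 was higher at ZT12. On the estimates 7 of the 9 were lower at ZT12, against a median log2 fold change of -0.25 over all lncRNAs.

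At ZT20, 2 of the 9 were called lower than at ZT0, where 9.28% of all lncRNAs tested were. Both lie near the member ENSGALG00000000994 on chromosome 23 from 2264039 to 2265225. That member was at 1.07, 1.27 and 2.57 TPM at ZT0, 0.0973, 0 and 0.211 TPM at ZT12, and 0.123, 0.276 and 0.228 TPM at ZT20. The lncRNA G9144, 3.00 kb away, was at 39.4, 33.7 and 28.4 TPM at ZT0, 15.1, 11.0 and 27.8 TPM at ZT12, and 2.56, 1.85 and 3.42 TPM at ZT20. Its log2 fold change for ZT20 against ZT0 was -3.28 ± 0.38 (SE; limma, adjusted p = 4.5e-05), and every ZT20 hen was below every ZT0 hen.

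G9135, 64.6 kb from the same member, was at 2.22, 2.39 and 3.44 TPM at ZT0, 0.867, 0.629 and 0.642 TPM at ZT12, and 0.108, 0.466 and 0.332 TPM at ZT20. Its log2 fold change for ZT20 against ZT0 was -1.50 ± 0.22 (SE; limma, adjusted p = 0.00028), and for ZT12 against ZT0 it was -1.09 ± 0.22 (SE; limma, adjusted p = 0.075). G9148, 38.5 kb away, went the other way. It was at 198, 276 and 562 TPM at ZT12, against 178, 99.6 and 136 TPM at ZT0, a log2 fold change of 1.22 ± 0.41 (SE; limma, adjusted p = 0.13). The lncRNA nearest to VAMP3, G8651, was at 0.804, 1.35 and 1.33 TPM at ZT0, 0.750, 0.636 and 0.235 TPM at ZT12, and 1.16, 1.78 and 1.28 TPM at ZT20, so that its ZT20 hens overlapped its ZT0 hens, while those of VAMP3 did not. Whether counting used strand is not given in the sources used here, so it is not known that reads of overlapping genes on opposite strands were told apart.

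Lists of genes for processes of the follicle, written with earlier results of these data known, were set beside the members. Of all mRNAs tested, 3.32% were called lower at ZT12 than at ZT0. Among channels and transporters, all 41 listed genes had an identifier, as in no other list, and 3 were members, KCNIP1, KCNMB1 and GABRP. Counts from this list are a description only. Of the 41, 5 were called lower at ZT12 than at ZT0 and none higher, with a median log2 fold change of -0.37 against -0.28 over all mRNAs of the table. KCNMB1 was the only member among the 5. Of the others, HVCN1, a proton channel, averaged 14.2 TPM at ZT0, 2.33 TPM at ZT12 and 453 TPM at ZT20, and SLC6A4, the serotonin transporter, averaged 21.2, 0.607 and 4.402 TPM. KCNJ5, a potassium channel, was at 48.6, 41.2 and 57.8 TPM at ZT0, 0.550, 27.9 and 0.405 TPM at ZT12, and 0.839, 2.01 and 1.82 TPM at ZT20, so that ZT12 replicate 2 alone set its ZT12 mean apart from ZT20.

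Of the extracellular matrix list, 25 of 59 genes had an identifier, LAMB3 was the only member, and 2 were called lower at ZT12 than at ZT0. The other of the 2 was FN1, fibronectin, at 776 TPM at ZT0, 127 TPM at ZT12 and 3000 TPM at ZT20 on average. A further list holds genes of 4 terms from the study's own enrichment of mRNAs lower at ZT12. With an identifier were 8 of its 33 genes, 5 were called lower, and MAPT was the only member. That list was chosen on these samples and is not independent evidence. No member was in the lists for growth factor signalling (14 of 77 with an identifier), cell cycle (29 of 43), circadian clock (4 of 23), immediate early response (5 of 34), steroidogenesis (12 of 31) or contractile proteins (17 of 26), where 2, 0, 1, 0, 1 and 1 genes were called lower at ZT12.

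Markers of other cells were read beside these values, as far as they had an identifier. Markers of granulosa cells (5 of 19) summed to 87901 to 96012 TPM at ZT0, 96859 to 116826 TPM at ZT12 and 97934 to 118690 TPM at ZT20. Most of it was ZP3, an egg coat protein that granulosa cells of birds make, so the sum hides the other markers. In the same order of stages, NR5A1 averaged 309, 178 and 42.4 TPM and NR5A2 443, 333 and 33.1 TPM. STAR averaged 1738, 1531 and 13572 TPM and SERPINE2 2.82, 1.39 and 5.77 TPM. Endothelial markers (3 of 14) summed to 52.9 to 116 TPM at ZT0, 35.4 to 42.2 TPM at ZT12 and 19.7 to 23.7 TPM at ZT20, and surface epithelium markers (3 of 8) to 15.9 to 22.9, 9.24 to 10.4 and 5.68 to 8.002 TPM. Both sums were higher at ZT0, the epithelial one through a single gene and the endothelial one mostly through CLDN5. The epithelial sum was nearly all ST14, a surface protease, at 17.5, 9.29 and 6.17 TPM on average, while CDH1 and GRHL3 averaged below 1 TPM at every stage. Of the endothelial genes, S1PR1 averaged 16.1, 16.02 and 2.59 TPM and PALD1 15.2, 7.38 and 14.6 TPM, so that neither was low at both later stages. CLDN5, a tight junction protein of endothelium, averaged 47.1, 16.04 and 4.78 TPM and was highest in ZT0 replicate 3, at 74.5 TPM against 42.3 and 24.5 TPM in the other ZT0 hens. The 2 smooth muscle markers of 10 summed to 1.74 to 5.90 TPM at ZT0, 0.240 to 0.492 TPM at ZT12 and 0.287 to 1.12 TPM at ZT20, but 1 of them is the member KCNMB1. The other, MYOCD, is not a member. MYOCD was at 0.598, 0.411 and 2.99 TPM at ZT0, 0.142, 0.0195 and 0.167 TPM at ZT12, and 0.0207, 0.0249 and 0 TPM at ZT20. Every ZT0 hen of MYOCD was above every later hen, at levels mostly below 1 TPM.

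Theca and stroma markers (3 of 14) summed to 3.98 to 5.10 TPM at ZT0, 4.18 to 5.01 TPM at ZT12 and 4.92 to 6.53 TPM at ZT20. Leukocyte markers (8 of 19) summed to 236 to 273, 223 to 351 and 154 to 206 TPM, and germ cell markers (3 of 9) to 7.01 to 37.7, 9.13 to 41.5 and 12.5 to 28.3 TPM. Most of the leukocyte sum was FYB, averaging 199, 200 and 141 TPM, and CD74, averaging 47.2, 74.0 and 26.5 TPM. PTPRC, DOCK2, BLB1, TNFRSF18 and RGS1 averaged highest at ZT20, and BTK at ZT0. The germ cell sum was on average mostly GTSF1, at 23.1, 27.4 and 14.1 TPM, while PIWIL1 averaged 0.340, 0.463 and 6.66 TPM. No erythroid marker of 12 had an identifier. The read GC content listed by the study did not overlap between ZT12 and ZT0 libraries, while that of most ZT20 libraries lay within the range of ZT0. The part of other cells and of GC content in the members' levels was not tested.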

How the data were processed

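Total RNA of 9 samples was sequenced as paired ends after removal of ribosomal RNA. The authors aligned the reads with STAR 2.6.0c, assembled lncRNAs with Cufflinks 2.2.1 (the version in the submitters' processing notes) and TACO, and estimated TPM by Kallisto. The tables hold log2 values that the authors deposited, read here as log2(TPM + 1) for mRNAs and, since they start at 1, as log2(TPM + 2) for lncRNAs. TPM holds no depth, so depth per value is unknown and no counting interval is given.

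Members were found on the deposited mRNA values. All 9 libraries entered a limma 3.58.1 fit (R 4.3.3) of log2(TPM + 1) on 3 stage means, with a mean-variance trend, for transcripts above 0.1 TPM in at least 1 library, with Benjamini-Hochberg adjustment, after it was tested on simulated data. The authors' DESeq2 test needs counts and was not run. Tables were made with Python 3.11.15, numpy 2.4.6 and pandas 2.3.3, and plots with matplotlib 3.10.9.

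Members and lists were chosen with earlier results of these data known. Named in full were the 15 members with a symbol and largest M0 − M12, at most 4 per list, the 5 most abundant with a symbol, those nearest each limit, and 2 without a symbol. Names and positions come from the study's annotation table, of which a part was used. The alternatives were other scalings, pseudocounts, filters and limits, fits without a trend, with a replicate block or of the compared stages, medians, a 10 kb window, and each library left out. P-values set a difference of stage means against the spread between hens, with each transcript's variance moderated over all transcripts of the fit.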

Additional observations from a re-analysis of the deposited data

How the results depend on the processing

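The number of mRNAs that met the rule was 120 as deposited, 46 with median ratio scaling and 46 with quantile normalization, 262 with a pseudocount of 0.1 and 66 with M20 − M12 below 0.25, and 77 to 207 with each library left out. Chosen after seeing the data, a mean of at least 10 TPM at ZT0 left 66. With medians for means it was again 120, of which 74 were members. Members called lower at ZT12 than at ZT0 were 97, 20 with median ratio scaling, 17 with quantile normalization, 77 with a replicate block and 27 to 94 with a library left out. Members called lower at ZT20 than at ZT0 were 81, and from 57 with median ratio scaling to 104 with no fold change threshold. The rule was built on both contrasts, so the members' counts are a description and no measure of stability. All mRNAs called between ZT12 and ZT0 were 481, 2089 with no fold change threshold, 206 and 215 with the scalings, 785 with a pseudocount of 0.1, 388 with a replicate block, and 196 to 699 with a library left out. None of the 9 lncRNAs known to lie within 100 kb of a member was called between ZT12 and ZT0 with any other threshold, scaling, block or left-out library tried. The 10 kb window lies inside the 100 kb window, so it could add none. An unadjusted p with no fold change threshold, chosen after seeing the data, gave 5. The causes were not tested. Replicate numbers do not pair the hens. Deviations of same-numbered libraries correlated at -0.19 to 0.08, those of others at -0.11 to 0.16, and the closest library of another stage had the same number in 3 of 18 cases.

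Of 288 recomputed differences between ZT12 and ZT0 of the 15 members with a symbol and 2 without, 274 moved by less than the spread between hens, 14 by more, and none changed sign. Many of the 274 could not move, because the setting left the ZT0 and ZT12 means as they were. Such settings were a ZT20 library left out, the replicate block, the filters, no trend and the fit of the compared stages. The 274 are therefore no measure of stability. With 3 hens per stage, differences near the limit of 1 cannot be placed on either side of it. The scalings assume that most mRNAs kept their level, and whether the shift of all mRNAs is technical was not tested.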

Other observations

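Members that stood out by level or by a single hen are given here, picked with their values in view. ENSGALG00000045729 was the most abundant member, at 3826, 2593 and 3002 TPM at ZT0, 1924, 708 and 1471 TPM at ZT12, and 895, 1215 and 1284 TPM at ZT20. ENSGALG00000050250 met the rule through ZT0 replicate 1 alone, with 41.1, 1.20 and 0 TPM at ZT0, 1.055, 0 and 0 TPM at ZT12, and 0, 0 and 1.17 TPM at ZT20. ENSGALG00000039741 was at 2.29, 2.95 and 33.6 TPM at ZT0, 2.26, 1.77 and 0.986 TPM at ZT12, and 1.68, 0.606 and 0.918 TPM at ZT20, so that ZT0 replicate 3 stood alone. ENSGALG00000017271 was lowered at ZT12 by replicate 2, with 40.8, 58.2 and 89.1 TPM at ZT0, 54.6, 2.03 and 44.8 TPM at ZT12, and 20.8, 15.8 and 28.9 TPM at ZT20.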
